A study of Mus musculus with 8 samples.

Results

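Chemokines are small secreted proteins that steer leukocytes, and their genes and those of their receptors were examined in mouse skin. Members were chosen by gene name: every Ccl, Cxcl, Ccr, Cxcr and Ackr gene of the table, with Ppbp, Pf4, Xcl1, Xcr1, Cx3cl1 and Cx3cr1. This gave 63 of the 21885 named genes, which are 41 ligands, 18 signalling receptors and 4 atypical receptors. Gene RNA was measured by sequencing in 8 libraries. Of these, 4 came from skin treated with MC903 alone, titled control by the submitters. The other 4 came from skin that received MC903 plus phytic acid, below called phytic acid skin. MC903, or calcipotriol, is an analogue of vitamin D that gives mouse skin an inflammation like atopic dermatitis. Phytic acid (inositol hexaphosphate) is the form in which plant seeds keep phosphate. All libraries thus carry MC903, no library is untreated skin, and every difference below is between MC903 groups. The labels give no strain, sex, age, dose, time or skin site. Nor do they say that each library is a separate mouse, so p-values reflect only how these samples vary, and that variation may be technical.

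A chemokine binds a receptor of the G protein-coupled class on a leukocyte, which then moves up the ligand's gradient. In skin, CCL17, CCL22 and CCL27 draw T cells through CCR4 and CCR10, eotaxins draw eosinophils through CCR3, and CXC ligands such as CXCL1 and CXCL2 draw neutrophils through CXCR2. Atypical receptors bind chemokines without the usual G protein signal and remove or carry them.

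Ligand families are named for the first cysteines of the mature protein, adjacent in CC ligands, 1 residue apart in CXC ligands and 3 apart in CX3C ligands. The codons around these cysteines are shown for 6 ligands on which the results turn or which stand beside them in the genome. They are read 5′ to 3′ on the coding strand of GRCm38 with the GENCODE annotation, with the cysteine codons in capitals.
Ccl17: gtaggccgagagTGCTGCctggattacttc
Ccl22: gaagacagtatcTGCTGCcaggactacatc
Ccl27a: tccagcactagcTGCTGTactcagctctat
Cxcl2: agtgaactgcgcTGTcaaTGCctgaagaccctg
Cxcl16: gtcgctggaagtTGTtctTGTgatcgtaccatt
Cx3cl1: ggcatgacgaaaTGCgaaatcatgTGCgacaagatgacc
These stretches are exonic. They lie at chr8:94811200-94811229 (plus strand, Ccl17), chr8:94746922-94746951 (plus, Ccl22), chr4:41769933-41769962 (minus, Ccl27a), chr5:90904130-90904162 (plus, Cxcl2), chr11:70459115-70459147 (minus, Cxcl16) and chr8:94778039-94778077 (plus, Cx3cl1). In a search that skipped the first 20 codons, the first such spacing matched the family in the name for 22 of 23 CC ligands and 14 of 15 CXC ligands.

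Values are FPKM, which counts fragments against gene length and library size, so levels of different genes can be compared. Library totals recovered from them ran from 31676935 to 37639479 reads in MC903 skin and from 38310035 to 42997272 in phytic acid skin, so each phytic acid library was deeper. At these depths 1 read on a gene of 1 kilobase is worth 0.0233 to 0.0316 FPKM. Changes are differences of mean log2(FPKM + 1), phytic acid minus MC903, given with the standard error, and they understate the change of low genes. A gene was tested with limma where its FPKM reached 1 in at least 4 libraries. It was called at an adjusted p (Benjamini-Hochberg over all 12165 genes tested) under 0.05.

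With phytic acid, the T cell ligands Ccl17, Ccl22 and Ccl27a, the lymphotactin gene Xcl1, the dendritic cell receptor gene Ccr7 and the monocyte receptor gene Ccr2 were higher, and the neutrophil receptor gene Cxcr2 was lower. Of 63 members, 41 were tested and 22 were too low, with mean FPKM from 0 to 0.913. Called higher were 16, which is 39.0% of those tested, where 14.2% of all genes tested were called higher. Cxcr2 alone, 1 gene or 2.44% of those tested, was called lower, against 11.6% of all genes, and 24 were not called. The called genes are 8 of 29 tested ligands, 5 of 8 tested receptors with Cxcr2 besides, and 3 of 4 atypical receptors. The median log2 fold change was 0.37 over the tested members and 0.05 over all genes tested. These shares are a description, because 7 tested members reached an FPKM of 1 in at most 1 library of a group (among them Xcl1, Ccl27b, Ccr7 and Ccr4, called, and Cxcl1 and Cxcl3, not called). For those called, that group was MC903 skin, so they passed the filter through phytic acid skin, where they were high. Over all 63 members, tested or not, the MC903 and phytic acid values were fully apart for 16 (25.4%) with phytic acid higher and for Cxcr2 with phytic acid lower. Of the 18483 genes above 0 in a library, 11.7% were apart in the higher direction and 9.87% in the lower. Of the genes tested, 27.3% were apart, 14.3% higher and 13% lower.

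**Figure D1:**
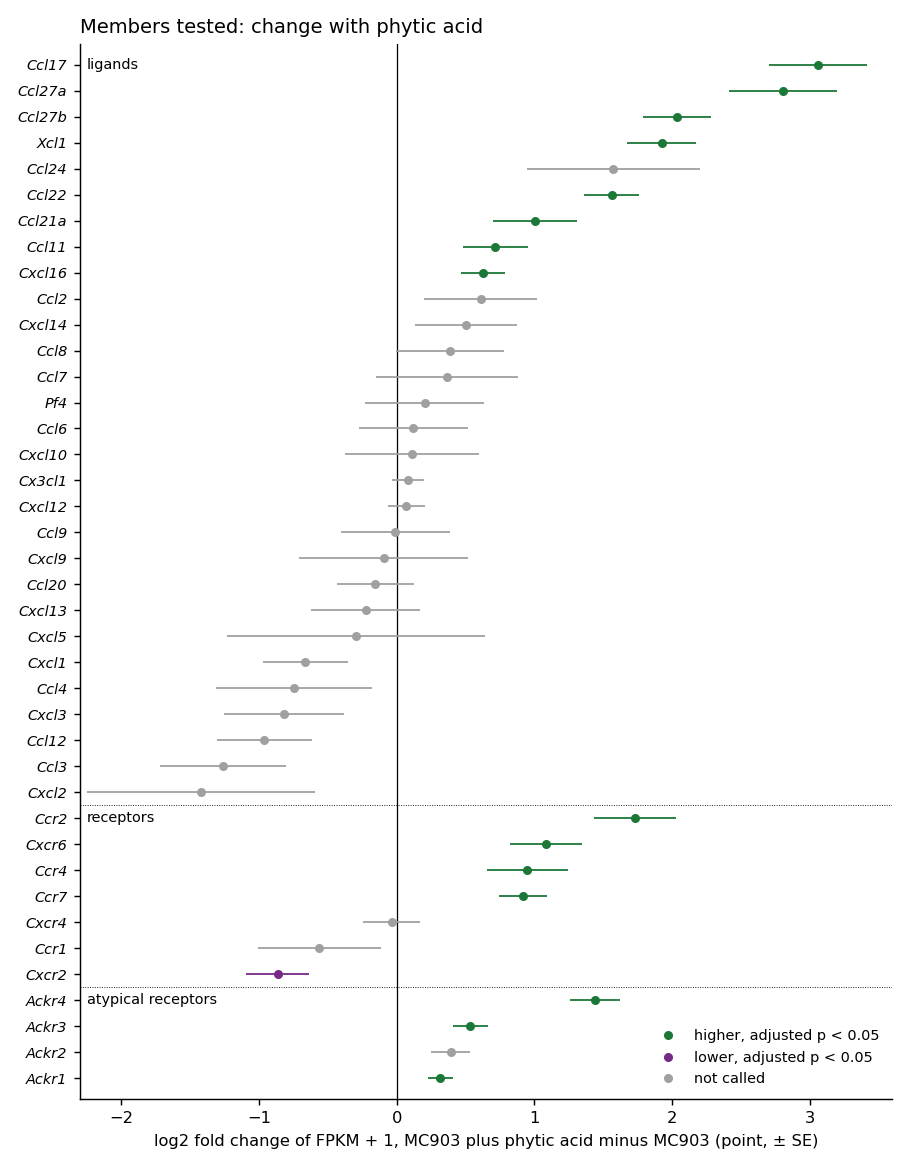
Each row is a tested member, with 1 not shown, and each point its log2 fold change of FPKM + 1, phytic acid minus MC903, with its SE as a bar. Ccl17 (3.06) and Ccl27a (2.80) lie farthest to the right, and Cxcl2 (-1.42) farthest to the left with a wide bar.

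Ccl17, Ccl27a and Ccl27b, which draw skin-homing T cells, had the largest log2 fold changes among the tested members. Ccl17, made by dendritic cells and a ligand of CCR4, had 2.95, 5.52, 5.48 and 1.40 FPKM in replicates 1 to 4 of MC903 skin. In replicates 1 to 4 of phytic acid skin it had 32.0, 25.5, 33.1 and 63.9 FPKM. Values of other genes are given in the same order. Every phytic acid library was thus above every MC903 library, with the lowest MC903 and the highest phytic acid value both in a replicate 4. The means were 3.84 ± 2.02 (SD, n = 4) and 38.6 ± 17.2 FPKM (SD, n = 4), a ratio of 10.1, from 272 reads in MC903 skin and 3243 in phytic acid skin. The log2 fold change of Ccl17 was 3.06 ± 0.36 (adjusted p = 0.000687 by limma). Ccl22, the other CCR4 ligand, had 1.602, 2.76, 2.29 and 1.52 FPKM in MC903 skin and 9.62, 6.16, 5.98 and 10.6 in phytic acid skin. These groups also lie apart, and the log2 fold change was 1.56 ± 0.20 (adjusted p = 0.00101 by limma).

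Ccl27a, the keratinocyte ligand of CCR10, went the same way. It had 2.15, 4.27, 10.6 and 2.07 FPKM in MC903 skin, where replicate 3 was highest, and 41.5, 26.4, 26.6 and 42.5 in phytic acid skin. The groups did not overlap and the log2 fold change was 2.80 ± 0.39 (adjusted p = 0.00141 by limma). Its copy Ccl27b rose from a mean of 0.502 to 5.10 FPKM, with a log2 fold change of 2.04 ± 0.25 (adjusted p = 0.000769 by limma). Of the 50-base stretches of Ccl27b's exons, 61.4% also occur in Ccl27a, so how reads divide between these copies is uncertain. Suprabasal keratinocyte markers were higher in the same libraries, 6 of 8 called higher and 1 lower, with a summed 1931 to 4725 FPKM in MC903 skin and 5316 to 7113 in phytic acid skin. Their part in the Ccl27a result was not tested.

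The receptors of these ligands were low. Ccr4, found on skin-homing and type 2 T cells, had 0.204, 0.716, 1.63 and 0.104 FPKM in MC903 skin and 3.59, 1.76, 1.33 and 1.81 in phytic acid skin. MC903 replicate 3 lay within the phytic acid range, and the log2 fold change of 0.95 ± 0.29 passed narrowly (adjusted p = 0.0412 by limma). That call was lost without MC903 replicate 1 (0.110), 2 (0.0734) or 4 (0.106), and without phytic acid replicate 1 (0.0977), 2 (0.0729) or 4 (0.0722). Ccr10, the receptor of CCL27, was not tested, with 0.0366 to 0.262 FPKM in MC903 skin and 0.108 to 0.355 in phytic acid skin, from 37 and 59 reads. Ccr8, another receptor of type 2 T cells, was not tested either, at 0.403 to 0.882 and 0.475 to 1.78 FPKM. Markers of T cells were higher in the same libraries, 4 of 5 tested called higher and 0 lower, with a summed 5.80 to 11.2 FPKM in MC903 skin and 14.1 to 35.6 in phytic acid skin. In bulk skin more cells of a type and more RNA per cell cannot be told apart, here or for any member below.

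**Figure D2:**
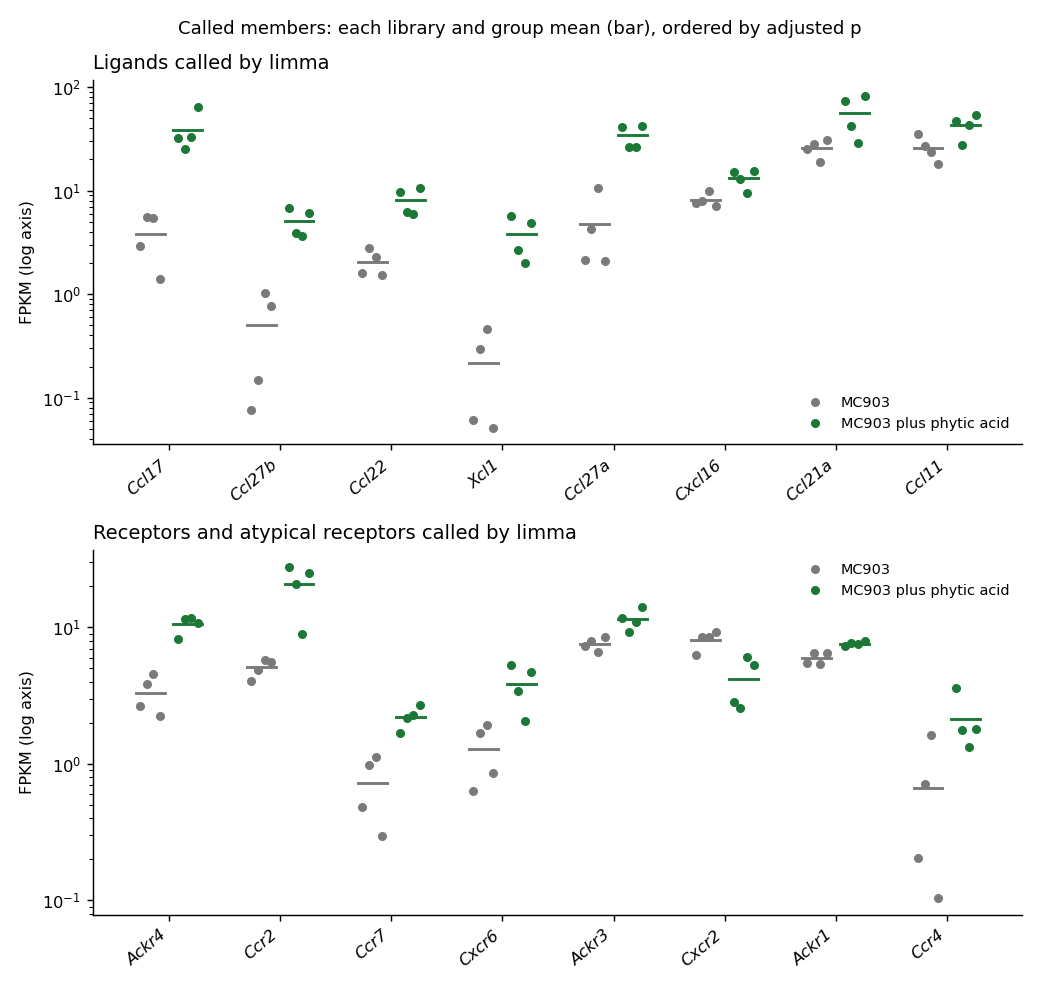
Each point is the FPKM of a called member (1 not shown) in 1 library on a log axis, with MC903 and phytic acid libraries side by side. Ccl17, Ccl22, Ccl27a and Xcl1 show no overlap between groups, whereas Ccl11, Ccl21a, Cxcl16 and Ccr4 do.

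The promoter of Ccl17 was searched for a motif of STAT6, the transcription factor of interleukin 4 and 13 signals, because Ccl17 is a known target of these cytokines. A promoter here is the 250 bases before the start in RefSeq (GRCm38.p6), given for 48 of the 63 members and for 32544 promoters in all. The motif (TTC, any 4 bases, GAA), which reads the same on both strands, was in the promoter of 1 of the 48, Ccl17, and in 5.89% of all promoters. Members are counted by gene, with a match in any promoter of the gene, whereas the 5.89% is over single promoters. The match is in capitals with 15 bases on each side, on the plus strand at chr8:94810284-94810323.
Ccl17: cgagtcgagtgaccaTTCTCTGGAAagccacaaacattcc
A match is a string of letters and does not show that a factor binds there.

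Of the eotaxins, the ligands of the eosinophil receptor CCR3, Ccl11 passed the test narrowly and Ccl24 did not. Ccl11 (eotaxin 1) had 35.0, 27.0, 23.4 and 17.9 FPKM in MC903 skin and 47.1, 27.8, 43.3 and 54.4 in phytic acid skin. Phytic acid replicate 2 lay below MC903 replicate 1, and the log2 fold change of 0.72 ± 0.23 passed at an adjusted p of 0.0493 by limma. Its call was lost in 13 of the 21 alternatives (adjusted p by limma 0.0189 to 0.122 over all of them), 6 of them the omission of MC903 replicate 2 (0.0855), 3 (0.0721) or 4 (0.122) or of phytic acid replicate 1 (0.111), 3 (0.0885) or 4 (0.120). Ccl24 (eotaxin 2) had 2.83, 2.65, 2.09 and 5.60 FPKM in MC903 skin and 7.20, 3.73, 9.72 and 52.8 in phytic acid skin. Phytic acid replicate 4 stood far above the rest, and the log2 fold change of 1.57 ± 0.63 did not pass (adjusted p = 0.0960 by limma). It passed without phytic acid replicate 2 (0.0461), with library weights (0.0306) and with a replicate block (0.0352). The range over all alternatives was 0.0306 to 0.180. The receptor gene Ccr3, named after its values were seen, was not tested. It had 0.188 to 0.579 FPKM in MC903 skin and 1.16, 0.782, 0.341 and 3.01 in phytic acid skin, so replicate 4 was again highest.

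Among the eosinophil markers, Ear2 had a mean of 27.2 FPKM in MC903 skin and 127 in phytic acid skin, and it was called with Ear6, the only other one tested. The defining granule gene Epx was at 0 in every MC903 library and at most 0.0179 FPKM in phytic acid skin. The part of these genes in the Ccl11 result was not tested.

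Ccl8, which in the mouse acts on CCR8, was the most abundant ligand. It had 180, 232, 156 and 281 FPKM in MC903 skin and 365, 178, 147 and 559 in phytic acid skin. The phytic acid libraries spread on both sides of the MC903 range, and the log2 fold change of 0.39 ± 0.39 did not pass (adjusted p = 0.506 by limma). Ccl8 was listed with the ligands of skin homing and type 2 responses. Of these 10 ligands 7 were tested, and 5 were called higher and 0 lower, among them Ccl27a and its copy Ccl27b. Of all genes tested, 14.2% were called higher and 11.6% lower. The 3 untested ligands of that list had mean FPKM of 0.709 or less in either group.

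Among the lymphoid and homeostatic genes, the receptor gene Ccr7 and the ligand gene Ccl21a were called higher. Ccr7, the receptor that takes dendritic cells to lymph nodes, had 0.479, 0.978, 1.13 and 0.297 FPKM in MC903 skin and 1.69, 2.16, 2.29 and 2.68 in phytic acid skin. No MC903 library reached the lowest phytic acid library, and the log2 fold change was 0.92 ± 0.18 (adjusted p = 0.00571 by limma). Ccl21a, its ligand on lymphatic vessels, had 25.3, 28.0, 19.0 and 31.1 FPKM in MC903 skin and 73.4, 42.5, 28.8 and 81.5 in phytic acid skin. Phytic acid replicate 3 lay inside the MC903 range, and the log2 fold change was 1.01 ± 0.30 (adjusted p = 0.0377 by limma). That call was lost without MC903 replicate 1 (0.0832), 2 (0.0696), 3 (0.0639) or 4 (0.0533), and without phytic acid replicate 1 (0.0951), 2 (0.0543) or 4 (0.0887). Of the 50-base stretches of Ccl21a, 30.8% also occur in Ccl21b, so its value may include reads of other copies.

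Ccl19, the other CCR7 ligand, was too low to be tested. It had 0.146, 0.0720, 0.245 and 0.0617 FPKM in MC903 skin and 1.36, 1.08, 0.456 and 1.56 in phytic acid skin, from 16 and 156 reads, and these groups did not overlap. With no filter on low values it was called (adjusted p = 0.0124 by limma). Markers of lymphatic endothelium that were tested were not called, 0 of 4 in either direction. Prox1, also listed, was too low to be tested, at 0.446 to 0.653 FPKM in MC903 skin and 0.784 to 1.07 in phytic acid skin, without overlap. The list summed to 34.6 to 76.3 FPKM in MC903 skin and 39.0 to 66.6 in phytic acid skin. Lyve1, which is part of that sum, is also in the macrophage list. Of 6 dendritic cell markers tested, 4 were called higher and 1, Fscn1, lower, from a mean of 19.2 to 4.83 FPKM. The listed dendritic cell markers summed to 110 to 142 FPKM in MC903 skin and 203 to 472 in phytic acid skin. Their part in the Ccr7 result was not tested.

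The homeostatic pair Cxcl12 and Cxcr4, which retains leukocytes and stem cells in tissue, was not called. Cxcl12 had a mean of 18.6 ± 3.10 FPKM (SD, n = 4) in MC903 skin and 19.5 ± 2.66 (SD, n = 4) in phytic acid skin. The log2 fold change of Cxcl12 was 0.07 ± 0.14 (adjusted p = 0.737 by limma). Cxcr4 had 14.3, 9.87, 9.86 and 12.8 FPKM in MC903 skin and 7.17, 12.4, 11.7 and 15.3 in phytic acid skin, and its log2 fold change was -0.03 ± 0.21 (adjusted p = 0.921 by limma). The groups of both genes overlapped. Cxcl13, the B cell ligand, was abundant and uneven, at 293, 192, 139 and 210 FPKM in MC903 skin and 75.6, 169, 320 and 215 in phytic acid skin. Its highest and lowest libraries were both of phytic acid skin, and its log2 fold change was -0.22 ± 0.40 (adjusted p = 0.711 by limma). The B cell markers were near 0, at a summed 0.175 to 0.581 FPKM in MC903 skin and 0.637 to 1.08 in phytic acid skin.

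Of the C family pair, the ligand gene Xcl1 was called higher and the receptor gene Xcr1 was too low to be tested. Xcl1 (lymphotactin), made by T and natural killer cells, had 0.0604, 0.298, 0.457 and 0.0511 FPKM in MC903 skin and 5.68, 2.70, 2.001 and 4.92 in phytic acid skin. No phytic acid library came near the MC903 range, and the log2 fold change was 1.93 ± 0.25 (adjusted p = 0.00103 by limma). Xcl1 reached an FPKM of 1 in 0 MC903 libraries and 4 phytic acid libraries. It thus passed the filter only through the group where it was high, and that p-value is a description. The means differed 17.6 times, but rest on 16 reads in MC903 skin against 325 in phytic acid skin. Exons of Xcl1 overlap Gm20743 on the other strand over 18.7% of their length. Xcr1 marks the dendritic cells that cross-present antigen. It had 0.0142, 0.0631, 0.298 and 0 FPKM in MC903 skin and 2.25, 1.23, 0.277 and 1.17 in phytic acid skin. Phytic acid replicate 3 was the single overlap, below MC903 replicate 3. With no filter Xcr1 was called (adjusted p = 0.0379 by limma). Of 3 genes listed for dendritic epidermal T cells, which make Xcl1, Klrk1 and Cd7 were tested and both were called higher. The other, Cd3e, is also in the T cell list, so the list is not exclusive to these cells. The listed genes had a summed 0.775 to 3.97 FPKM in MC903 skin and 8.18 to 12.8 in phytic acid skin. Their part in the Xcl1 result was not tested.

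The monocyte receptor gene Ccr2 rose, and none of its ligands was called. CCR2 is the receptor with which monocytes enter inflamed tissue. Its gene had 4.08, 4.89, 5.82 and 5.63 FPKM in MC903 skin and 27.9, 20.7, 8.89 and 25.2 in phytic acid skin. Phytic acid replicate 3 was the lowest of its group and still above every MC903 library, and the log2 fold change was 1.73 ± 0.30 (adjusted p = 0.00364 by limma).

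Cx3cr1, the fractalkine receptor of resident macrophages and Langerhans cells, was not tested, with 0.154 to 0.492 FPKM in MC903 skin and 0.501 to 1.27 in phytic acid skin. With no filter it was called (adjusted p = 0.0354 by limma). Ccr1 was not called, at 6.26, 5.11, 2.83 and 15.9 FPKM in MC903 skin and 2.21, 2.52, 6.88 and 5.81 in phytic acid skin, with a log2 fold change of -0.56 ± 0.45 (adjusted p = 0.388 by limma). Its highest value was that of MC903 replicate 4. Macrophage and monocyte markers had 3 of 10 called higher and 0 lower (Lyz2, Adgre1 and Csf1r), with a summed 522 to 822 FPKM in MC903 skin and 923 to 1288 in phytic acid skin. Their part in the Ccr2 result was not tested.

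None of the 8 tested ligands of monocytes and macrophages was called. Ccl2, the main CCR2 ligand, had 6.52, 6.69, 3.39 and 12.8 FPKM in MC903 skin and 11.7, 4.52, 18.2 and 13.2 in phytic acid skin. The groups overlapped and the log2 fold change was 0.61 ± 0.41 (adjusted p = 0.306 by limma). Ccl12, a second CCR2 ligand, leaned the other way, at 8.76, 4.18, 6.43 and 13.6 FPKM against 3.34, 1.56, 4.72 and 5.02. Its log2 fold change of -0.96 ± 0.34 did not pass (adjusted p = 0.0672 by limma). It did without MC903 replicate 2 (0.0375), with library weights (0.0234) and with a replicate block (0.0131). The range over all alternatives was 0.0131 to 0.161. Ccl7, which also binds CCR2, went from a mean of 14.8 ± 7.04 FPKM (SD, n = 4) to 22.2 ± 16.3, with a log2 fold change of 0.37 ± 0.51 (adjusted p = 0.636 by limma). Its highest value, 43.9, was in phytic acid replicate 3.

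The mouse CCR1 ligands Ccl6 and Ccl9 were among the most abundant. Ccl6 had 220, 206, 76.4 and 260 FPKM in MC903 skin and 118, 171, 209 and 300 in phytic acid skin. Ccl9 had 92.0, 83.8, 32.5 and 134 FPKM in MC903 skin and 51.6, 66.4, 84.4 and 113 in phytic acid skin. Both were lowest in MC903 replicate 3, and their log2 fold changes were 0.12 ± 0.39 (adjusted p = 0.846 by limma) and -0.01 ± 0.39 (adjusted p = 0.987 by limma). Ccl3, a CCR1 ligand named after its values were seen, had 3.13, 3.67, 2.01 and 10.3 FPKM in MC903 skin and 0.224, 0.477, 1.70 and 3.07 in phytic acid skin. Its log2 fold change of -1.26 ± 0.46 did not pass (adjusted p = 0.0710 by limma). It did without MC903 replicate 3 (0.0346) or phytic acid replicate 4 (0.0390), within a range of 0.0240 to 0.169. Ccl5, a T cell ligand of CCR1, was not tested, at 0.223 to 0.664 FPKM in MC903 skin and 0.775 to 1.12 in phytic acid skin. Its groups did not overlap, and with no filter it was called (adjusted p = 0.0328 by limma). Cx3cl1 (fractalkine), the membrane-bound ligand of CX3CR1, had means of 2.16 ± 0.375 and 2.35 ± 0.296 FPKM (SD, n = 4 each), with a log2 fold change of 0.09 ± 0.12 (adjusted p = 0.628 by limma).

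Among the neutrophil genes, the receptor was lower and the ligands were scattered. Cxcr2, through which neutrophils follow CXC ligands, had 6.31, 8.44, 8.56 and 9.21 FPKM in MC903 skin and 2.83, 2.57, 6.07 and 5.34 in phytic acid skin. Every phytic acid library lay below every MC903 library, the closest being 6.07 against 6.31, and the log2 fold change was -0.86 ± 0.23 (adjusted p = 0.0222 by limma). That call was lost without MC903 replicate 2 (0.0565) or 4 (0.0604) and without phytic acid replicate 1 (0.0586) or 2 (0.0544). Of 5 neutrophil markers tested in the same libraries, Mmp8 and S100a8 were called lower, 0 were higher and the other 3 were not called. They summed to 114 to 740 FPKM in MC903 skin and 11.7 to 156 in phytic acid skin, which overlap. The neutrophil-defining Ly6g was at 0 in 3 MC903 libraries and 3 phytic acid libraries, and at most 0.284 FPKM elsewhere. Keratinocytes can express several of these genes, and the part of the markers in the Cxcr2 result was not tested.

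Cxcl2, a CXCR2 ligand, had 2.29, 3.21, 1.13 and 30.1 FPKM in MC903 skin and 0.166, 0.0505, 5.15 and 1.39 in phytic acid skin. MC903 replicate 4 stood far above the others, and phytic acid replicate 3 exceeded the remaining MC903 libraries. The log2 fold change of Cxcl2, -1.42 ± 0.83, did not pass (adjusted p = 0.238 by limma). Cxcl1 had 1.57, 1.48, 0.283 and 2.37 FPKM in MC903 skin and 0.262, 0.125, 1.29 and 0.340 in phytic acid skin. Its log2 fold change of -0.66 ± 0.31 did not pass (adjusted p = 0.144 by limma). It did without MC903 replicate 3 (0.0162) and with library weights (0.0140), within a range of 0.0140 to 0.322. Cxcl5 had 2.0, 1.06, 0.114 and 14.99 FPKM in MC903 skin and 0, 0, 9.58 and 3.55 in phytic acid skin, with a log2 fold change of -0.30 ± 0.94 (adjusted p = 0.843 by limma). Cxcl3, named after its values were seen, had 1.16, 1.26, 0.258 and 5.20 FPKM in MC903 skin and 0.168, 0.0149, 1.18 and 0.519 in phytic acid skin. Its log2 fold change was -0.82 ± 0.43 (adjusted p = 0.197 by limma), and it passed without MC903 replicate 3 (0.0498), within a range of 0.0498 to 0.417. In all 4 genes MC903 replicate 4 was the highest of all libraries and phytic acid replicate 3 the highest of its group.

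**Figure D3:**
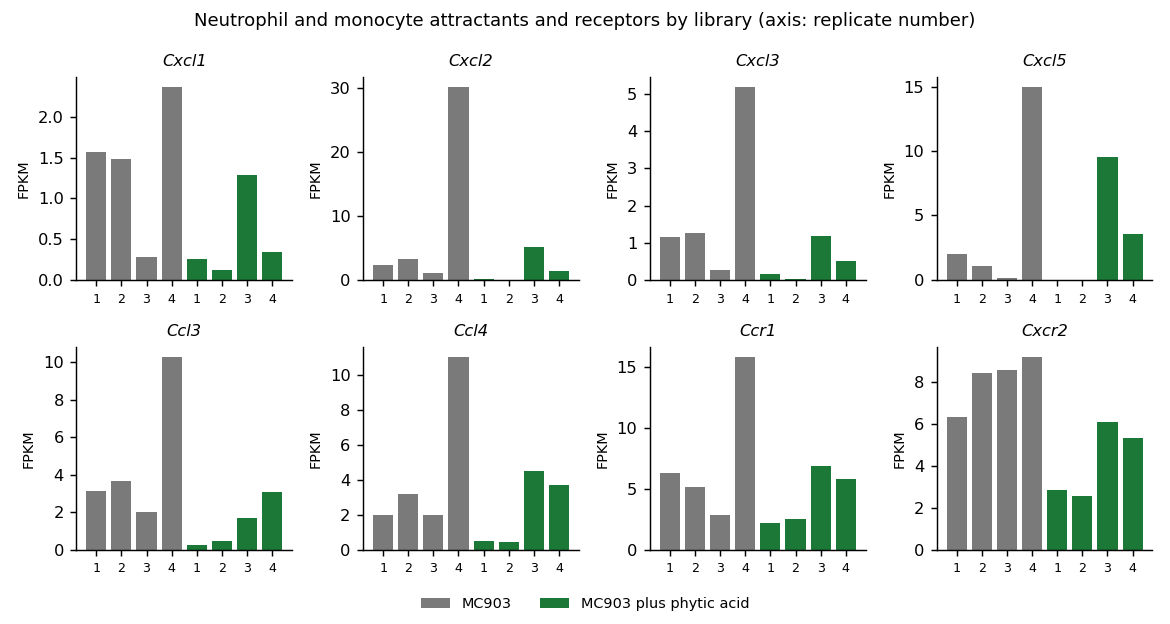
Bars give the FPKM of inflammatory ligands and the receptors Ccr1 and Cxcr2 in each library. Replicates 1 to 4 of MC903 come first and then those of phytic acid, each panel on its own axis from 0. MC903 replicate 4 carries the tallest bar for Cxcl2 (30.1 FPKM), while Cxcr2 is spread over all MC903 libraries.

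Cxcl1, Cxcl2 and Cxcl3 lie close together on chromosome 5 and share their high and low libraries, and their promoters, each with a match, are shown. Cxcl5, on the same chromosome, shares those libraries too but was not among the members with a match. NF-kB, a factor of inflammatory signals, was searched for on both strands as GGG, any 3 bases and TTCC (in reverse GGAA, any 3 bases and CCC), and matches may overlap. It was in the promoters of 9 of 48 members (Ccl1, Ccl20, Ccl9, Ccr3, Ccr6, Cxcl1, Cxcl10, Cxcl2 and Cxcl3) and in 4.65% of all promoters. The 9 are genes with a match in any of their promoters, whereas the 4.65% is over single promoters, so these are unlike units. The windows below, in RefSeq's GRCm38.p6 on the plus strand, have 1 match each in capitals.
Cxcl1: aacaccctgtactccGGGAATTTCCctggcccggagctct
Cxcl2: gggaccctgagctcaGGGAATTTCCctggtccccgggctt
Cxcl3: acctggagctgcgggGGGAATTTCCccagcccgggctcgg
They lie at chr5:90891159-90891198 (Cxcl1), chr5:90903787-90903826 (Cxcl2) and chr5:90786013-90786052 (Cxcl3). The same 10 letters stand in all of them. No measurement here bears on binding at these sites.

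Pf4, the platelet ligand that macrophages also make, was not called. It had 53.7, 61.7, 23.8 and 124 FPKM in MC903 skin and 61.2, 41.1, 84.4 and 82.0 in phytic acid skin, with a log2 fold change of 0.20 ± 0.43 (adjusted p = 0.760 by limma). Its highest and lowest libraries were both of MC903 skin.

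The interferon-induced ligands of CXCR3 showed no call. Cxcl9 had 1.49, 2.17, 2.55 and 15.1 FPKM in MC903 skin and 4.07, 3.24, 0.848 and 7.73 in phytic acid skin, with a log2 fold change of -0.09 ± 0.61 (adjusted p = 0.927 by limma). Cxcl10 had 1.46, 1.29, 2.04 and 9.39 FPKM in MC903 skin and 4.71, 2.41, 1.21 and 4.58 in phytic acid skin, with a log2 fold change of 0.11 ± 0.49 (adjusted p = 0.891 by limma). MC903 replicate 4 was highest and phytic acid replicate 3 lowest for both. Their receptor gene Cxcr3, of type 1 T cells, was not tested, at 0.433 to 0.742 FPKM in MC903 skin and 0.511 to 1.37 in phytic acid skin.

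Among the ligands of epithelia, Cxcl16 rose with its receptor. Cxcl16, a membrane-bound ligand, had 7.62, 7.99, 10.03 and 7.09 FPKM in MC903 skin and 15.1, 13.03, 9.42 and 15.6 in phytic acid skin. Phytic acid replicate 3 lay inside the MC903 range, and the log2 fold change was 0.62 ± 0.16 (adjusted p = 0.0199 by limma). That call was lost without MC903 replicate 1 (0.0581), 2 (0.05002) or 4 (0.0574) and without phytic acid replicate 1 (0.0555) or 4 (0.0544). Cxcr6, its receptor on resident T cells, had 0.638, 1.70, 1.93 and 0.859 FPKM in MC903 skin and 5.33, 3.43, 2.05 and 4.69 in phytic acid skin. The groups were apart by a small margin at phytic acid replicate 3, and the log2 fold change was 1.08 ± 0.26 (adjusted p = 0.0149 by limma). Exons of Cxcl16 overlap Zmynd15 on the other strand over 18.3% of their length, and whether reads were counted by strand is unknown here.

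Cxcl14, a ligand of normal epithelium, was not called. It had 21.5, 24.4, 72.5 and 25.2 FPKM in MC903 skin and 50.6, 42.3, 29.5 and 64.3 in phytic acid skin. MC903 replicate 3 exceeded every phytic acid library while the other MC903 libraries lay below all of them. The log2 fold change was 0.50 ± 0.37 (adjusted p = 0.350 by limma). Without that library it was 0.90 (0.0151), and with library weights 0.94 (0.0194), within a range of adjusted p from 0.0151 to 0.609. Ccl20, the CCR6 ligand of inflamed epithelium, had 5.80, 6.43, 2.90 and 3.29 FPKM in MC903 skin and 3.64, 2.26, 3.85 and 6.47 in phytic acid skin. Its groups overlapped fully, with a log2 fold change of -0.16 ± 0.28 (adjusted p = 0.714 by limma). Ccr6 itself was not tested, at 0 to 0.137 FPKM in MC903 skin and 0.0401 to 0.381 in phytic acid skin, from 19 and 85 reads.

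All 4 atypical receptors were above the filter and 3 were called higher. Ackr4, which removes the CCR7 ligands CCL19 and CCL21, had 2.65, 3.87, 4.55 and 2.23 FPKM in MC903 skin and 8.17, 11.5, 11.7 and 10.8 in phytic acid skin. The groups stood far apart, and the log2 fold change was 1.44 ± 0.18 (adjusted p = 0.000952 by limma). Exons of Ackr4 overlap Acad11 on the other strand over 8.90% of their length. Ackr3, the scavenger of CXCL12, had 7.26, 7.99, 6.57 and 8.46 FPKM in MC903 skin and 11.7, 9.27, 10.9 and 14.0 in phytic acid skin. Those groups did not overlap either, and the log2 fold change was 0.53 ± 0.13 (adjusted p = 0.0153 by limma). Ackr1, the carrier of chemokines across venules, had 5.46, 6.44, 5.37 and 6.47 FPKM in MC903 skin and 7.30, 7.64, 7.53 and 8.01 in phytic acid skin. The difference was small but without overlap, with a log2 fold change of 0.32 ± 0.09 (adjusted p = 0.0320 by limma). It was lost without MC903 replicate 1 (0.101) or 3 (0.0513), without any 1 of the phytic acid libraries (0.0564 to 0.0799), and under median-of-ratios scaling (0.124), quantile normalization (0.0785) or voom on recovered reads (0.0745), within a range of 0.00937 to 0.124. Exons of Ackr1 share 25.7% of their length with Cadm3 on the same strand, so its value may include reads of Cadm3.

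Ackr2, which removes inflammatory CC ligands, had 2.45, 2.21, 1.72 and 1.40 FPKM in MC903 skin and 2.31, 3.45, 2.78 and 2.87 in phytic acid skin. It was not called, with a log2 fold change of 0.39 ± 0.14 (adjusted p = 0.0693 by limma). Markers of blood vessel endothelium, where ACKR1 is found, had 0 of 8 called in either direction, with a summed 44.9 to 62.2 FPKM in MC903 skin and 51.1 to 55.3 in phytic acid skin.

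Most of the chemokine RNA came from a few ligands. Over all libraries Ccl8 took 23.7%, Cxcl13 19.3% and Ccl6 17.8% of the summed ligand FPKM, and these ligands together took 54.1% to 68.5% of it in each library. The shares of Ccl8 were 22.3% ± 3.29 (SD, n = 4) and 25.1% ± 10.3 (SD, n = 4) in MC903 and phytic acid skin. Those of Cxcl13 were 22.0% ± 5.26 and 16.7% ± 8.90, and those of Ccl6 were 19.0% ± 4.57 and 16.6% ± 3.59. Exact two-sided permutation tests over the 8 libraries gave p = 0.6, 0.343 and 0.429, each 0.6 adjusted over the 3 tests. Ccl17, Ccl22 and Ccl27a together took 0.389% to 2.94% in MC903 skin and 5.69% to 8.05% in phytic acid skin, a description since these genes were picked for their calls. The sum over all ligands was 624 to 1283 FPKM in MC903 skin and 865 to 1768 in phytic acid skin, and that over signalling receptors 35.3 to 48.8 and 44.4 to 76.3.

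**Figure D4:**
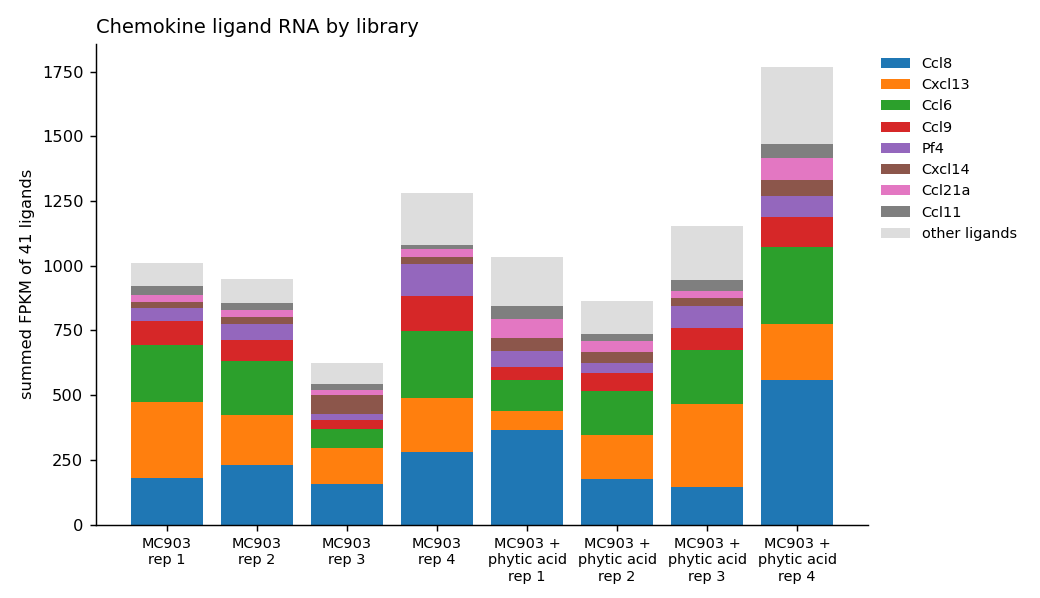
Stacked bars give the summed FPKM of the 41 ligands in each library, with the leading ligands in colour. Ccl8, Cxcl13 and Ccl6 fill 54.1% to 68.5% of every bar, and phytic acid replicate 4 is the tallest at 1768 FPKM.

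Known receptor and ligand pairs were set side by side. Of 39 pairs, 18 had both partners tested, and in 4 both were called higher: Ccr4 with Ccl17, Ccr4 with Ccl22, Ccr7 with Ccl21a, and Cxcr6 with Cxcl16. Each of these 4 pairs holds Ccr4, Ccl21a or Cxcl16, whose calls were lost without single libraries, as given above. Ccr4 is counted with each of its ligands, and Ccr4 and Ccr7 reached an FPKM of 1 in only 1 MC903 library each. Among all members tested, 5 of 8 receptors and 8 of 29 ligands were called higher. In 5 of the 39 pairs the receptor, Cxcr2, was called lower. Ccr2 was called higher while no tested ligand of it was. Positions in GRCm38 place several changed members close together. Ccl22 (94745590 to 94751699), Cx3cl1 (94772009 to 94782427) and Ccl17 (94810453 to 94812036) follow each other on chromosome 8, and Cx3cl1, the middle gene, was not called. On chromosome 9, Cxcr6 (123806475 to 123811760), Xcr1 (123852315 to 123862029), Ccr1 (123962124 to 123968692) and Ccr3 (124021972 to 124031689) precede Ccr2 (124101950 to 124113557). Of these, Cxcr6 and Ccr2 were called higher, Ccr1 was not called, and Xcr1 and Ccr3 were not tested.

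Other genes of the chemokine pathway, in 6 lists, had 24 of 103 tested called higher and 12 lower. Of all genes tested, 14.2% were called higher and 11.6% lower, which is 25.8% in either direction. The migration machinery of leukocytes had 8 of 21 higher and 0 lower. Its leading genes were Dock2, a Rac activator that drives leukocyte movement (log2 fold change 0.90 ± 0.14), Arhgef6 (0.93 ± 0.15), the actin regulator Coro1a (1.16 ± 0.20) and the P-selectin ligand Selplg (0.92 ± 0.18). RGS proteins, which end G protein signals, had 4 of 10 higher and 0 lower (Rgs18, Rgs10, Rgs14 and Rgs4, with 0.52 to 1.01). G proteins, kinases and adaptors had 5 of 25 higher and 2 lower. Grk2, a kinase that desensitises receptors, rose from 19.1 to 27.0 FPKM and the kinase gene Src fell from 8.88 to 4.43. The phosphoinositide kinase gene Pik3cd and the G protein gene Gnai1 rose by 0.70 ± 0.16 and 0.50 ± 0.14.

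Proteases that trim chemokines had 2 of 14 higher and 6 lower. The collagenase gene Mmp13 fell from 169 ± 152 (SD, n = 4) to 3.19 ± 2.36 FPKM and the cathepsin gene Ctsk from 272 to 144. Dpp4, which clips the amino end of several chemokines, rose from 7.29 ± 0.339 to 11.6 ± 1.06 FPKM, and Mmp12 from 2.32 to 7.63. Heparan sulfate carriers, which hold chemokines on cells, had 2 of 19 higher (Sdc4 and Sdc2, 0.63 ± 0.11 and 0.51 ± 0.11) and Sdc1 lower (-0.81 ± 0.10). Other leukocyte attractants and their receptors had 3 of 14 higher and 3 lower. The gene 2610528A11Rik, which encodes a ligand of GPR15, fell from 144 to 39.2 FPKM, and Mif from 121 to 71.3. The receptor genes Ptafr, of platelet-activating factor, and S1pr5, of sphingosine phosphate, rose from 3.98 to 7.75 and from 2.73 to 6.52 FPKM. Per list, the median log2 fold change ran from -0.24 (proteases) to 0.39 (migration), beside 0.05 over all genes tested.

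The libraries also differed in the makeup of tissue, and these values stand beside all the calls above. Skin was recognisable from keratinocyte and fibroblast markers in every library. Skeletal muscle markers were higher in phytic acid skin, 7 of 8 called, with a summed 3587 to 4130 FPKM in MC903 skin and 7529 to 8689 in phytic acid skin. Langerhans cell markers had 5 of 6 called higher, among them Cd74 and H2-Ab1, and Cd24a lower. Of 7 adipocyte markers 2 were called higher, and of 7 nerve markers 4. Mast cell markers had Fcer1a lower among 8 and none higher. Of 7 fibroblast markers, Dpt and Dcn were called higher, with a summed 435 to 518 FPKM in MC903 skin and 583 to 1130 in phytic acid skin. Of 8 basal keratinocyte markers, Krt15 and Dst were called higher, and Krt14 fell from a mean of 5275 to 1357 FPKM. Among genes of RNA and tissue quality, 1 of 7 mitochondrial messages was called higher (mt-Co3, 49.7 to 103 FPKM), with a summed 16853 to 23939 FPKM in MC903 skin and 21384 to 30975 in phytic acid skin. Of 9 genes of dissection stress, Atf3 rose from 4.004 to 22.3 FPKM and Junb fell from 84.9 to 46.0. The part of these in the chemokine results was not tested.

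**Figure D5:**
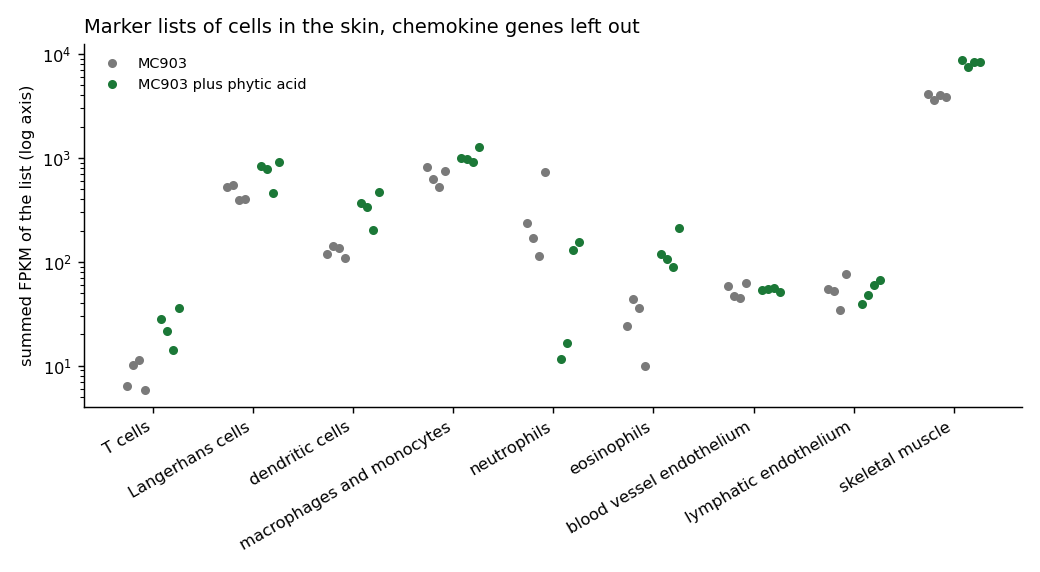
Each point is the summed FPKM of a marker list in 1 library on a log axis, with chemokine genes left out of the lists. T cell sums are 5.80 to 11.2 in MC903 skin and 14.1 to 35.6 in phytic acid skin, while neutrophil sums overlap between groups.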

How the data were processed

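The authors deposited 1 table of FPKM per gene and library. Per the labels' protocols, RNA came from a TRIzol extraction and a SMARTER kit for mRNA was used. Per the submitters' processing notes, cutadapt, HISAT2, TopHat2 and DESeq were named with the build mm10. Not given in the sources used here are versions, the annotation, the strand setting and the tool that made the FPKM. Of 21959 rows, 51 had no name and were dropped (0.016% to 0.024% of each column's total), and of 21 repeated names the row of highest mean was kept.

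Genes reaching an FPKM of 1 in 4 or more of the 8 libraries were tested by limma 3.58.1 (R 4.3.3, lmFit and eBayes with trend) on log2(FPKM + 1), two-sided, with Benjamini-Hochberg adjustment over all 12165. The procedure was tested on simulated data. FPKM times exon length (GENCODE, GRCm38) gave whole reads within 0.05 for 17509 of 17980 genes (97.4%) and 60 members, which gave the depths. Alternatives were other pseudocounts (0.1 and 0.01), other filters, scalings and library weights, 2 forms of eBayes, a replicate block, voom on those reads and leaving out each library.

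Members and lists were chosen with earlier results of these data known. Named were called members, tested members whose mean FPKM reached 5 and a fixed list of further genes, and of each pathway list up to 4 called genes of smallest p. Others that are named with values are marked as chosen after their values were seen. A called member stays in the counts but is not reported here by name.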

Additional observations from a re-analysis of the deposited data

Results flagged for a closer look

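Of 88 sets of 4 libraries examined, 2 held a library that stood apart from the others, and chance gives about 1 in 20. For Cxcl14 in MC903 skin, replicate 3 stood at 72.5 FPKM against 21.5 to 25.2 in the others. Taken on log2(FPKM + 1), that gap was 0.871 of the whole range. For the share of Ccl6 in the summed ligand FPKM of MC903 skin, replicate 3 was low at 12.2% against 20.2% to 21.8%. Taken on the percentages without a log, that gap was 0.838 of the range. Both gaps exceed Dixon's 95% critical value for sets of this size. The same library was the highest of its group for Ccl27a, Xcl1, Ccr4, Ccr7 and Ackr4. Without it Cxcl14 had a log2 fold change of 0.90 (adjusted p = 0.0151 by limma).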

How the results depend on the processing

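Of the 17 called members, 10 kept their call in every alternative in which they were tested (among them Ackr3, Ackr4, Ccl17, Ccl22, Ccl27a, Ccl27b, Ccr2, Ccr7 and Xcl1), and no called member changed sign. The count called higher was 10 where the mean FPKM had to reach 5, a filter that removed 6 called members, and 11 to 14 without 1 library. The count called lower was 3 with library weights and 0 to 4 without 1 library. Ligands called higher were 5, not 8, after omission of MC903 replicate 2 or 4, or phytic acid replicate 1 or 4. Ccl27b had no whole reads and was not run by voom. Over all genes, 1722 were called higher and 1412 lower. The higher count was 1098 under that filter and 2865 with library weights, and the split was 1469 and 1828 with median-of-ratios scaling. Without 1 library it was 1072 to 2418 higher and 941 to 1561 lower. Pathway genes called higher were 13 under the filter of 5 and 17 to 29 without 1 library, and those called lower 6 to 16. Members whose groups did not overlap were 16 to 24 higher and 1 to 4 lower without 1 library. The difference in share was -0.62 to 6.90 percentage points for Ccl8, -8.96 to -2.17 for Cxcl13 and -4.69 to -0.73 for Ccl6 without 1 library, an alternative chosen after seeing the data.

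Same-numbered libraries deviated from their group means with correlations of -0.283, -0.105, -0.286 and 0.225. Those of different number ran from -0.285 to 0.398. So few values cannot decide whether a shared number marks a pair, and the labels do not say. With the replicate block, 12 members were called higher and 3 lower, and 1098 genes higher and 948 lower. Calls were gained by Ccl24 (higher, adjusted p = 0.0352 by limma) and by Ccl12 (0.0131) and Ccl3 (0.0240), both lower. The block ended the calls of Ackr1 (adjusted p = 0.0989 by limma), Ccl11 (0.0794), Ccr4 (0.0890), Cxcl16 (0.0684) and Cxcr6 (0.0536), and for Cxcr6 it was the only alternative that did.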
